A study of Mus musculus with 12 samples.

Results

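The type 2 effector cytokine genes of lung group 2 innate lymphoid cells (ILC2s) described here are *Il4*, *Il5*, *Il9*, *Il13*, *Areg* and *Csf2*. They were chosen by name, as the best known secreted products of these cells, and all 6 were among the 24346 gene symbols with a value in each of the 12 RNA-seq libraries. ILC2s are tissue-resident lymphocytes that carry no antigen receptor and respond to alarmins. The alarmin IL-33 binds ST2, the product of *Il1rl1*, and signals through MyD88 to NF-κB and p38. IL-5 and GM-CSF (the product of *Csf2*) sustain eosinophils and other myeloid cells, IL-13 and IL-4 act on epithelium, smooth muscle and macrophages through a shared receptor chain, IL-9 acts on mast cells and on ILC2s themselves, and amphiregulin (the product of *Areg*) binds the EGF receptor and aids epithelial repair.

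The study asked how semaphorin 6D, a membrane-bound guidance protein encoded by *Sema6d*, shapes lung ILC2s at rest and after IL-33. RNA of lung ILC2s was sequenced from wild-type (WT) mice given PBS, *Sema6d*-/- mice (6DKO in the labels) given PBS, WT mice given IL-33 and 6DKO mice given IL-33, with 3 libraries in each of the 4 groups. All mice were of the C57BL/6 strain by the labels (C57BL/6J by the study's methods) and, by the methods, 7 to 12 weeks old, and PBS or IL-33 was given intranasally for 3 days. The labels give 50 ng of IL-33, and the study's methods give a higher dose. The 6DKO mice lacked the gene in every tissue and not in ILC2s alone. Effects within ILC2s and effects of their surroundings therefore cannot be told apart in these libraries. The study addressed that question with bone marrow chimeras and a co-culture of ILC2s with lung mesenchymal cells, which were not used here. ILC2s were sorted as CD45+ Thy1.2+ ST2+ cells negative for lineage antibodies that included those to CD3ε, CD5, NK1.1, F4/80 and an Fc receptor printed as FcγRIα (clone MAR-1). Whether a library came from 1 mouse or from pooled mice is not given in the sources used here, so p-values measure only the spread between these samples, which may be technical in part.

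*Sema6d* itself was measured first, as a check of the genotype labels. Its level was 27.5, 46.1 and 37.5 FPKM (fragments scaled to transcript length and library size) in WT PBS 1 to 3 and 29.0, 22.9 and 19.8 FPKM in 6DKO PBS 1 to 3. Under IL-33 it was 19.7, 35.5 and 28.7 FPKM in WT 1 to 3 and 15.4, 13.6 and 13.8 FPKM in 6DKO 1 to 3. The genotypes overlapped under PBS, where 6DKO PBS 1 lay above WT PBS 1, and did not overlap under IL-33. Transcripts of the gene were thus lower in most libraries labelled 6DKO but absent from none. Which exons the deletion removes is not given in the sources used here, so these values of the whole gene check the labels only in part, and genotype below means the label.

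The ILC2 label was checked against 11 markers, and all 11 were above 1 FPKM in all 12 libraries. Their summed level was 4616 to 6901 FPKM in the 6 PBS libraries and 5760 to 6961 FPKM in the 6 IL-33 libraries, and *Id2*, a repressor needed for all innate lymphoid cells, was the most abundant at 1726 to 3238 FPKM. Of 8 T cell markers 5 stayed under 1 FPKM in every library and *Cd4* was listed at 0 throughout, whereas *Cd3g* stood at 190 to 480 FPKM and *Cd3e* at 0 to 9.81 FPKM.

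Markers of other cells stood out in 4 libraries, of which 3 were 6DKO. In 6DKO PBS 2, all 5 NK cell markers were above 1 FPKM, with a sum of 106 FPKM led by *Ncr1* at 58.9 FPKM, against sums of 7.93 FPKM or less in the other 11 libraries. The summed level of 10 macrophage and dendritic cell markers was 185 FPKM in 6DKO PBS 2, led by *Lyz2* at 112 FPKM. It was 422 FPKM in 6DKO IL-33 2 and 147 FPKM in 6DKO IL-33 3, both led by *Chil3* at 394 and 83.1 FPKM, and 0.815 to 17.2 FPKM in the remaining 9 libraries. In 6DKO IL-33 3 the epithelial sum was 109 FPKM, of which *Sftpc*, a surfactant gene, made 97.2 FPKM. In WT PBS 3, *Hdc*, the histidine decarboxylase gene of basophils and mast cells, stood at 134 FPKM, against 5.01 FPKM or less in the other 11 libraries. WT PBS 3 was left out only singly, as was each library. Results are also given without the 3 6DKO libraries together, an alternative chosen after the values were seen, in which 6DKO IL-33 holds only 1 library that is assumed to vary like the other groups. The part of these markers in the results was not tested.

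Read totals are not given with FPKM values. From the spacing of low values in genes under 3 FPKM, the relative depth of the libraries differed by up to 1.88-fold, from 0.739 in WT PBS 1 to 1.39 in WT IL-33 1 with WT IL-33 3 set to 1. Of 3617 genes of middle abundance, the number listed at 0 was 169 to 641 per library with PBS but only 25 to 50 with IL-33. A value of 0 in a PBS library is therefore read only as listed at 0.

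The 6 genes fell into 3 of high and 3 of low abundance. *Csf2* ranked 32 to 46 among all genes of a library under PBS and 97 to 134 under IL-33, *Areg* ranked 61 to 86 and 89 to 116, and *Il5* ranked 125 to 265 and 227 to 364. *Il4* ranked 1185 to 6862 under PBS and 1387 to 2248 under IL-33, *Il13* ranked 3134 to 8038 and 2449 to 3932, and *Il9* was listed at 0 in 9 of 12 libraries. In PBS libraries the order of group means in FPKM was *Csf2*, *Areg*, *Il5*, *Il4*, *Il13* in both genotypes. In the IL-33 libraries *Areg* stood above *Csf2* by group mean, but the values of these neighbours overlapped within both genotypes.

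**Figure D1:**
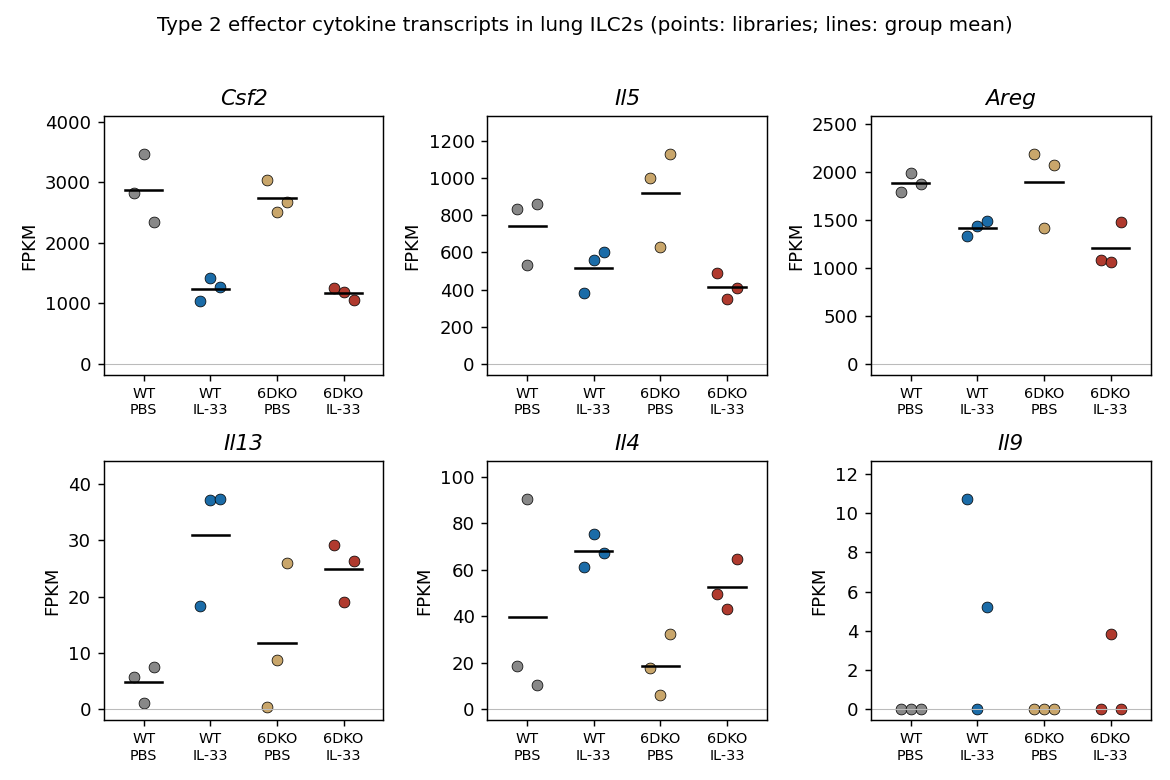
FPKM (vertical axes, linear and scaled for each gene) of the 6 cytokine genes in WT and 6DKO lung ILC2s given PBS or IL-33 (horizontal axes), with 1 point for each of 12 libraries and a line at each group mean, left out for *Il9*. All 6 IL-33 libraries lie between 1041 and 1416 FPKM for *Csf2*, below all 6 PBS libraries at 2341 to 3466 FPKM.

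*Csf2* encodes GM-CSF, the growth factor of granulocytes and macrophages. Its level was 2819, 3466 and 2341 FPKM in WT PBS 1 to 3 and 1041, 1416 and 1267 FPKM in WT IL-33 1 to 3. In 6DKO mice it was 3044, 2514 and 2675 FPKM under PBS and 1248, 1196 and 1051 FPKM under IL-33. Every IL-33 library lay below every PBS library, in both genotypes and over all 12 libraries. In bulk RNA, fewer cells that make a transcript and less of it per cell cannot be told apart, here and for each gene below. The mean fell from 2875 ± 565 (SD, n = 3) to 1242 ± 189 FPKM in WT, a PBS to IL-33 ratio of 2.32, and from 2744 ± 272 to 1165 ± 102 FPKM in 6DKO, a ratio of 2.36. With limma on log2(FPKM + 1), a scale that understates changes of low genes, *Csf2* fell by 1.20 in WT (95% interval −1.54 to −0.86, adjusted p = 0.00141, lower in 3 of 3 IL-33 libraries). In 6DKO it fell by 1.23 (−1.58 to −0.89, limma adjusted p = 0.00168, lower in 3 of 3). Without WT PBS 3 the fall in WT was 1.34 (limma adjusted p = 0.00137). Without the 3 6DKO libraries named above the fall was still called in WT (limma adjusted p = 0.0150) and no longer in 6DKO, where the log2 change was −1.19 (limma adjusted p = 0.171). The difference between the genotypes' responses was −0.03 (−0.51 to 0.45, limma adjusted p = 0.989).

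Across all 11429 genes tested, 494 passed an adjusted p of 0.05 in WT, of which 310 were higher (2.71%) and 184 lower (1.61%) with IL-33. In 6DKO 331 passed, 204 higher (1.78%) and 127 lower (1.11%). These counts hang on single IL-33 libraries, as the WT count was 201, 243 and 231 without WT IL-33 1, 2 or 3 and the 6DKO count 131, 121 and 134 without 6DKO IL-33 1, 2 or 3. They were 329 and 19 without the 3 6DKO libraries with markers of other cells. Of the 6 cytokine genes 0 were called higher and 1 lower (*Csf2*) in WT, and 0 higher and 2 lower (*Csf2* and *Il5*) in 6DKO by limma, where 2021 and 1744 of all genes had an unadjusted p under 0.05. Counting genes whose IL-33 and PBS libraries did not overlap, 1 cytokine gene was higher in WT (*Il13*, background 15.8%) and 2 were lower (*Csf2* and *Areg*, background 9.2%). In 6DKO 1 was higher (*Il4*, background 13.9%) and 2 were lower (*Csf2* and *Il5*, background 8.72%). Over all 6 IL-33 against all 6 PBS libraries, 0 were higher, with a background of 4.11%, and 1 was lower (*Csf2*), with a background of 2.33%. The share of genes without overlap in these small groups leaves single calls of this kind near the background. In WT, 518 of 11429 genes had a log2 change as low as that of *Csf2* or lower, and 473 did in 6DKO. The median log2 change of the 6 genes was 0.46 in WT and 0.06 in 6DKO, beside 0.16 and 0.14 over all genes.

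*Il5* encodes the main growth and survival factor of eosinophils. Its level was 832, 531 and 859 FPKM in WT PBS 1 to 3 and 384, 561 and 601 FPKM in WT IL-33 1 to 3. In 6DKO mice it was 999.7, 627 and 1129 FPKM under PBS and 488, 351 and 412 FPKM under IL-33. The WT groups overlapped through WT PBS 2, and the 6DKO groups did not overlap. The mean was 741 ± 182 FPKM (SD, n = 3) under PBS and 515 ± 115 FPKM under IL-33 in WT, with a log2 change of −0.52 (−1.09 to 0.06, limma adjusted p = 0.345, 1 of 3 IL-33 libraries below all PBS libraries). In 6DKO it was 919 ± 261 and 417 ± 68.5 FPKM, and *Il5* fell by 1.11 (−1.68 to −0.53, limma adjusted p = 0.0466, lower in 3 of 3). That call lies close to the threshold. It was lost without WT PBS 1 (limma adjusted p = 0.0519), WT PBS 3 (0.0508), 6DKO PBS 1 (0.110), 6DKO PBS 3 (0.113), WT IL-33 2 (0.0723), WT IL-33 3 (0.0667), 6DKO IL-33 1 (0.0892), 6DKO IL-33 2 (0.183) or 6DKO IL-33 3 (0.151). Without the 3 6DKO libraries with markers of other cells the log2 change was −1.12 (limma adjusted p = 0.377). The WT and 6DKO responses differed by −0.59 (−1.40 to 0.22, limma adjusted p = 0.895), so a call in 6DKO and none in WT does not show that they differ.

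*Areg* encodes amphiregulin, a ligand of the EGF receptor. Its level was 1796, 1987 and 1875 FPKM in WT PBS 1 to 3 and 1336, 1438 and 1485 FPKM in WT IL-33 1 to 3. In 6DKO mice it was 2188, 1416 and 2075 FPKM under PBS and 1082, 1063 and 1478 FPKM under IL-33. The WT groups did not overlap, and the 6DKO groups overlapped only because 6DKO PBS 2 lay below 6DKO IL-33 3. The mean was 1886 ± 96.1 FPKM (SD, n = 3) under PBS and 1419.5 ± 76.5 FPKM under IL-33 in WT, a log2 change of −0.41 (−0.78 to −0.04) that did not pass (limma adjusted p = 0.224, lower in 3 of 3). In 6DKO it was 1893 ± 417 and 1208 ± 234 FPKM, a log2 change of −0.64 (−1.01 to −0.27) that did not pass either (limma adjusted p = 0.0719, 2 of 3 below all PBS libraries). Without 6DKO PBS 2 alone the 6DKO change was −0.84 and passed (limma adjusted p = 0.0116), and without all 3 6DKO libraries with markers of other cells it was −0.98 and did not (limma adjusted p = 0.0676).

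*Il13* encodes the cytokine that drives goblet cell mucus and airway smooth muscle contraction. Its level was 5.80, 1.10 and 7.60 FPKM in WT PBS 1 to 3 and 18.4, 37.2 and 37.3 FPKM in WT IL-33 1 to 3. In 6DKO mice it was 0.436, 8.83 and 26.0 FPKM under PBS and 29.1, 19.1 and 26.4 FPKM under IL-33. The WT groups did not overlap, whereas 6DKO PBS 3 lay among the IL-33 libraries. The mean was 4.83 ± 3.35 FPKM (SD, n = 3) under PBS and 31.0 ± 10.9 FPKM under IL-33 in WT, an IL-33 to PBS ratio of 6.41 and a log2 change of 2.62 (0.66 to 4.58). That change did not pass over all genes (limma adjusted p = 0.142, higher in 3 of 3), although only 236 of 11429 genes had a log2 change as high or higher. It passed without 6DKO PBS 1, a library outside the comparison that holds the lowest value and adds to the shared spread (limma adjusted p = 0.0252). In 6DKO the mean was 11.8 ± 13 and 24.9 ± 5.18 FPKM, a ratio of 2.12 and a log2 change of 1.81 (−0.14 to 3.77, limma adjusted p = 0.372, 2 of 3 above all PBS libraries). It was 2.27 without the 3 6DKO libraries with markers of other cells (limma adjusted p = 0.835).

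*Il4* encodes the cytokine that shares the IL-4 receptor alpha chain with IL-13. Its level was 18.4, 90.3 and 10.4 FPKM in WT PBS 1 to 3 and 61.3, 75.5 and 66.9 FPKM in WT IL-33 1 to 3. In 6DKO mice it was 17.6, 6.11 and 32.4 FPKM under PBS and 49.6, 43.2 and 64.4 FPKM under IL-33. The PBS libraries spread widely, WT PBS 2 was the highest of all 12, and the 6DKO groups did not overlap. In WT the mean was 39.7 ± 44.0 FPKM (SD, n = 3) under PBS and 67.9 ± 7.16 FPKM under IL-33, a log2 change of 1.33 (−0.18 to 2.84, limma adjusted p = 0.360, 0 of 3 above all PBS libraries). Without WT PBS 2 it was 2.2 and passed (limma adjusted p = 0.0466), and without WT PBS 3, the library with high *Hdc*, it was 0.71 (limma adjusted p = 0.619). In 6DKO the mean was 18.7 ± 13.2 and 52.4 ± 10.9 FPKM, a ratio of 2.80 and a log2 change of 1.68 (0.17 to 3.20, limma adjusted p = 0.267, higher in 3 of 3). It was 1.02 without the 3 6DKO libraries with markers of other cells (limma adjusted p = 0.924).

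*Il9* encodes a growth factor of mast cells. It was listed at 0 in all 6 PBS libraries. With IL-33 it stood at 10.7, 0 and 5.22 FPKM in WT IL-33 1 to 3 and at 0, 3.85 and 0 FPKM in 6DKO IL-33 1 to 3. It was thus above 0 in 2 of 3 WT and 1 of 3 6DKO libraries, all given IL-33, and was called in neither genotype (limma adjusted p = 0.211 in WT and 0.724 in 6DKO). It was called in WT without WT IL-33 2, the only WT IL-33 library listed at 0 (limma adjusted p = 0.0433). Leaving that library out removes the value that stood against a rise, so this call is no separate result. No fold is given against groups at 0.

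An exact permutation test of 3 against 3 libraries cannot go below p = 0.1, and this smallest value was reached in WT by *Csf2*, *Areg* and *Il13* and in 6DKO by *Csf2*, *Il5* and *Il4* (2-sided). Exchanging libraries within each genotype gives 400 arrangements and a smallest p of 0.005, an exact test that was added after the values were seen. By it the exact p was 0.005 for *Csf2*, the smallest it can give, 0.01 for *Il13*, 0.01 for *Areg*, 0.015 for *Il5*, 0.03 for *Il4* and 0.2 for *Il9*. These 6 p-values are not adjusted for the number of genes looked at.

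The cytokine genes took a smaller share of the RNA with IL-33. Together they held 0.708 ± 0.0303% of summed FPKM (SD, n = 3) in WT PBS and 0.426 ± 0.0527% in WT IL-33. In 6DKO their share was 0.741 ± 0.0795% under PBS and 0.393 ± 0.0223% under IL-33. Taken singly, *Csf2*, *Areg* and *Il5* had lower mean shares with IL-33 in both genotypes, and *Il4*, *Il13* and *Il9* higher ones. *Csf2* made 51.5% of the sum of the 6 genes in WT PBS and 37.8% in WT IL-33, and 49.6% and 40.8% in 6DKO. *Areg* made 34.1% and 43.5% in WT, and 33.6% and 41.9% in 6DKO. *Il5* made 13.6% and 15.6% in WT, and 16.2% and 14.5% in 6DKO. *Il4* and *Il13* together stayed a small part, with *Il4* at 0.676% and 2.07% and *Il13* at 0.0911% and 0.926% in WT. The *Csf2* to *Areg* ratio was 1.25 to 1.77 in the PBS libraries and 0.711 to 1.15 in the IL-33 libraries, without overlap. The *Il5* to *Il13* ratio was 43.4 to 2291 under PBS and 15.1 to 20.9 under IL-33. No test was made of these sums and ratios.

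**Figure D2:**
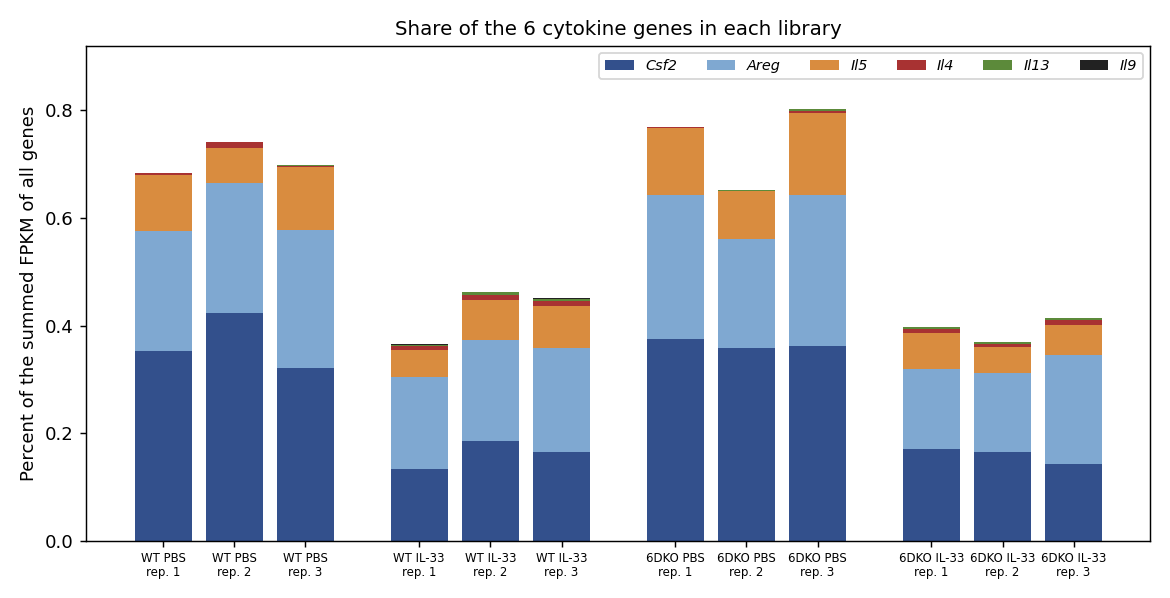
Percent of the summed FPKM of all genes (vertical axis, from 0) held by each of the 6 cytokine genes in each of 12 libraries (horizontal axis), as stacked bars. The 6 genes together lie between 0.652% and 0.803% in PBS libraries and between 0.366% and 0.462% in IL-33 libraries.

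The genotypes were compared at each treatment. Under IL-33, 1 of 11429 genes was called between libraries labelled 6DKO and WT (0.00875%), 0 of the 6 cytokine genes were called by limma, and 211 of all genes had an unadjusted p under 0.05. The call of 1 gene became 0 without WT IL-33 2 or 6DKO IL-33 1, 2 without WT PBS 2, WT IL-33 3 or 6DKO IL-33 3, and 3 without 6DKO PBS 1 or 6DKO IL-33 2. It became 11 without the 3 6DKO libraries with markers of other cells, 11 with only the groups compared and 57 with array weights. The log2 difference of 6DKO from WT was −0.08 for *Csf2* (95% interval −0.42 to 0.26), −0.29 for *Il5* (−0.86 to 0.28) and −0.25 for *Areg* (−0.62 to 0.12). It was −0.26 for *Il13* (−2.22 to 1.70), −0.38 for *Il4* (−1.89 to 1.13), and −1.30 for *Il9* (−3.11 to 0.50), which was listed at 0 in 3 of these 6 libraries, all with a limma adjusted p of 1. These intervals take their spread from all 12 libraries, and the median SD of a gene on this scale was 0.66 and 0.70 in WT and 6DKO under PBS but 0.29 and 0.28 under IL-33. From the 6 IL-33 libraries alone, intervals that were added after seeing the data ran from −0.79 to 0.0261 for *Il4*, −0.96 to 0.44 for *Il13*, −0.73 to 0.15 for *Il5*, −0.56 to 0.0588 for *Areg* and −0.38 to 0.21 for *Csf2*. That of *Il9* was wider, at −3.53 to 0.93, and 0 cytokine genes were called by limma. The sign of the *Csf2* difference turned with quantile normalization (0.0432), without WT IL-33 2 (0.0161) and without the 3 6DKO libraries with markers of other cells (0.0188). Under IL-33, 0 cytokine genes separated the genotypes without overlap, beside 14.2% of all genes.

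Under PBS, 68 genes were called between the genotypes (0.595%), 0 of them a cytokine gene by limma, and 1484 genes had an unadjusted p under 0.05. Without WT PBS 3 the count was 203, without 6DKO PBS 1, 2 or 3 it was 156, 149 and 145, without WT IL-33 1, 2 or 3 it was 23, 27 and 32, and without 6DKO IL-33 1, 2 or 3 it was 20, 25 and 31. It was 2 without the 3 6DKO libraries with markers of other cells, 1 with only the groups compared and 1 with array weights. The log2 difference of 6DKO from WT was −0.05 for *Csf2* (limma adjusted p = 0.933), 0.30 for *Il5* (0.639), −0.02 for *Areg* (0.997), 0.54 for *Il13* (0.838) and −0.73 for *Il4* (0.667), with libraries of both genotypes overlapping in each. 0 cytokine genes were without overlap, beside 8.6% of all genes. The *Il4* difference rests on WT PBS 2, without which it was 0.14, and that of *Il13* turned to −0.08 without WT PBS 2 and to −0.40 without 6DKO PBS 3. The sign for *Areg* turned without WT PBS 2 (0.0193) or 6DKO PBS 2 (0.18), and that for *Csf2* without WT PBS 2 (0.0906) or 6DKO PBS 2 (0.00761), and both turned with quantile normalization and TPM scaling.

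The interaction of genotype and treatment was called for 2 genes (0.0175%) and for 0 cytokine genes by limma, beside 639 genes at an unadjusted p under 0.05. The count was 6, 4 and 24 without WT PBS 1, 2 or 3, 17, 3 and 8 without 6DKO PBS 1, 2 or 3, 0 and 1 without WT IL-33 1 or 3, and 0 and 4 without 6DKO IL-33 1 or 2, and 12 without the 3 6DKO libraries with markers of other cells. The value was −0.80 for *Il13* (limma adjusted p = 0.935), 0.35 for *Il4* (0.971), −0.23 for *Areg* (0.899) and −1.30 for *Il9* (0.895). It turned in sign without 6DKO PBS 3 for *Il13* (0.15), without WT PBS 2 (−0.52) or 6DKO PBS 2 (−0.25) for *Il4*, and for *Csf2* without WT PBS 3 (0.11), 6DKO PBS 1 (0.0461), WT IL-33 2 (0.0695) or 6DKO IL-33 3 (0.0413). The treatment and genotype comparisons share libraries and are not independent of each other.

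Receptors for these cytokines were looked at in the same cells. Of 10 receptor genes 9 were tested. In either genotype 0 were called with IL-33 by limma, beside 4.32% of all genes in WT and 2.9% in 6DKO. At these shares 0 of 9 says nothing particular about the receptors. The receptors' median log2 change was 0 in both genotypes, since 5 of the 9 (*Il13ra1*, *Il5ra*, *Csf2rb*, *Csf2rb2* and *Egfr*) stayed under 1 FPKM in every library. The other 4 had lower means with IL-33 in both genotypes, and of these *Il9r* and *Csf2ra* overlapped between treatments. Over all genes, 2.33% were lower without overlap in all 6 IL-33 against all 6 PBS libraries. A lack of overlap below is therefore no result about the receptors as a list. *Il2rg*, the common gamma chain used by IL-4 and IL-9, was the most abundant at 2575 to 3201 FPKM under PBS and 2122 to 2439 FPKM under IL-33, without overlap, with log2 changes of −0.31 in WT and −0.36 in 6DKO that did not pass (limma adjusted p = 0.0684 and 0.0509, lower in 3 of 3 of each). *Il4ra* stood at 53.4 to 101 FPKM under PBS and 27.3 to 48.2 FPKM under IL-33, without overlap, with log2 changes of −1.16 in WT and −0.66 in 6DKO that did not pass (limma adjusted p = 0.0572 and 0.331, lower in 3 of 3 of each). *Il9r* stood at 21.2 to 58.4 FPKM and *Csf2ra* at 1.35 to 15.2 FPKM, while *Il5ra* and *Csf2rb*, the chains that bind IL-5 and pass on its signal, stayed at 0.776 FPKM or less.

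Of 10 genes of the IL-33 receptor and its signalling, 0 were called in either genotype by limma, beside 4.32% of all genes in WT and 2.9% in 6DKO. At these shares 0 of 10 says nothing particular about the list. Its median log2 changes were −0.07 in WT and −0.33 in 6DKO. *Il1rl1*, which encodes ST2, was the most abundant, at 117 to 269 FPKM. Of 15 transcription factors of the type 2 cytokine genes, 1 rose and 1 fell in WT, beside 2.71% and 1.61% of all genes, and 2 rose in 6DKO, beside 1.78%, with medians of 0.05 and 0.12. In each of these 4 genes the IL-33 and PBS libraries did not overlap in either genotype, and the interaction was called for none of them. Without overlap, 15.8% of all genes were higher and 9.2% lower in WT, and 13.9% and 8.72% in 6DKO. The genes were picked because they were called, so the lack of overlap where they were called is no separate result. For the genes called in these lists, leaving out each library was added after seeing the data. *Batf*, a partner of JUN proteins at AP-1 sites, rose by 3.91 on the log2 scale in WT, from a mean of 23.3 to 212 FPKM (limma adjusted p = 0.0223, higher in 3 of 3). That size rests on WT PBS 1, at 1.19 FPKM, without which it was 2.57, and the call was lost without WT IL-33 1 (limma adjusted p = 0.0672), 2 (0.0850) or 3 (0.0814). In 6DKO *Batf* had means of 60.6 and 219 FPKM, a log2 change of 1.87 that did not pass (limma adjusted p = 0.317, higher in 3 of 3).

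*Junb*, which encodes an AP-1 subunit, fell by 0.62 in WT, from 3264 to 2131 FPKM (limma adjusted p = 0.0208, lower in 3 of 3), a call lost without WT PBS 1 (0.0519), WT IL-33 2 (0.0586) or WT IL-33 3 (0.0977). In 6DKO *Junb* had means of 3035 and 2092 FPKM, a log2 change of −0.52 that did not pass (limma adjusted p = 0.0579, lower in 3 of 3). *Irf4*, a partner of BATF, rose by 3.45 in 6DKO, from 4.35 to 44.7 FPKM (limma adjusted p = 0.00573, higher in 3 of 3). In WT *Irf4* had means of 10.8 and 44.2 FPKM, a log2 change of 1.88 that did not pass (limma adjusted p = 0.0741, higher in 3 of 3). *Nfil3*, a basic leucine zipper factor, rose by 1.10 in 6DKO, from 91.2 to 193 FPKM (limma adjusted p = 0.0318, higher in 3 of 3). The *Nfil3* call was lost without 6DKO PBS 2 (limma adjusted p = 0.0638), 6DKO PBS 3 (0.0725), WT IL-33 2 (0.0548) or 6DKO IL-33 1, 2 or 3 (0.0856, 0.145 and 0.0898). In WT *Nfil3* had means of 123 and 188 FPKM, a log2 change of 0.59 that did not pass (limma adjusted p = 0.212, higher in 3 of 3). Without the 3 6DKO libraries with markers of other cells, *Junb* was still called in WT (limma adjusted p = 0.0434) and *Batf* was not (0.0948). In that fit the 6DKO log2 change was 3.26 for *Irf4* (limma adjusted p = 0.310) and 0.90 for *Nfil3* (0.613), neither called. *Gata3*, the master regulator of ILC2s, stood at 382 to 690 FPKM under PBS and 295 to 429 FPKM under IL-33 and was called in neither genotype. Of 6 genes of other EGF receptor ligands and their sheddase 3 were tested. With IL-33 0 were called by limma, beside 4.32% of all genes in WT and 2.9% in 6DKO. The sheddase gene *Adam17* had the highest mean, at 7.10 to 28.2 FPKM, though *Hbegf* lay above it in WT PBS 2 and 6DKO PBS 2, and *Tgfa*, *Btc* and *Epgn* were listed at 0 throughout.

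Among the ILC2 markers, *Il2ra*, the alpha chain of the IL-2 receptor, fell by 2.16 in WT and 1.57 in 6DKO (limma adjusted p = 0.000678 and 0.00653, lower in 3 of 3 of each). *Klrg1*, a receptor gene of mature ILC2s, rose by 1.19 in WT (limma adjusted p = 0.0329, higher in 3 of 3), or by 0.78 without WT PBS 2. Its call was lost without WT IL-33 1, 2 or 3 (limma adjusted p = 0.108, 0.0921 and 0.123) or 6DKO IL-33 1, 2 or 3 (0.0503, 0.0560 and 0.0524), and its log2 change in 6DKO was 0.67 (limma adjusted p = 0.271, higher in 3 of 3). Basophils and mast cells also make *Il4*, *Il13* and *Csf2*, and antibody MAR-1 of the sort, known to bind FcεRIα, is directed at these cells. *Fcer1a*, the gene of that chain, was listed at 0 in 11 libraries and stood at 2.99 FPKM in WT IL-33 2. The sum of 11 basophil and mast cell markers was 66.8, 89.4 and 208 FPKM in WT PBS 1 to 3 and 30.8, 34.2 and 22.4 FPKM in WT IL-33 1 to 3. In 6DKO it was 43.0, 107 and 51.1 FPKM under PBS and 18.9, 28.5 and 46.9 FPKM under IL-33. *Cpa3* was the most abundant of them in 11 libraries and *Hdc* in WT PBS 3, and 3 of 11, including the basophil proteases *Mcpt8* and *Prss34*, were listed at 0 throughout. Of the 8 tested, 1 was called lower in WT, beside 1.61% of all genes, and 0 in 6DKO by limma, beside 1.11%. Their median log2 changes were −0.0413 in WT and −0.0275 in 6DKO. *Cpa3* fell by 1.54 in WT (limma adjusted p = 0.0379, lower in 3 of 3), and in 6DKO its log2 change was −1.15 (limma adjusted p = 0.142, lower in 3 of 3). The WT call was lost without WT PBS 1, 2 or 3 (limma adjusted p = 0.0593, 0.0892 and 0.0665), WT IL-33 1, 2 or 3 (0.0865, 0.0850 and 0.161) or 6DKO IL-33 2 (0.0605). Of the other lists, 1 of 8 epithelial markers was called lower in 6DKO (1.11% of all genes), 1 of 10 macrophage and dendritic cell markers higher there (1.78%) and 1 of 3 B cell markers tested higher in WT (2.71%). *Epcam* fell by 3.73 in 6DKO (limma adjusted p = 0.0187) and *Cd68* rose by 2.08 there (limma adjusted p = 0.0248), and *Cd79b* rose by 4.08 in WT (limma adjusted p = 0.0235), each in 3 of 3 libraries. The medians of these 3 lists, in that order, were −0.0888, −0.32 and 0, and *Cdh1* and *Sftpc* had higher 6DKO means with IL-33, 0.786 and 3.66 FPKM for *Cdh1* and 0 and 32.4 FPKM for *Sftpc*. The call was lost for *Epcam* without 6DKO PBS 1 (limma adjusted p = 0.0533), 6DKO IL-33 2 (0.0681) or 3 (0.0797), for *Cd68* without 6DKO PBS 3 (0.0547), 6DKO IL-33 1 (0.106) or 2 (0.0966), and for *Cd79b* without WT PBS 1 (0.0607) or WT IL-33 1, 2 or 3 (0.106, 0.0737 and 0.0672). The sum of the 4 B cell markers was 0 to 8.90 FPKM under PBS and 3.49 to 26.9 FPKM under IL-33, that of the 8 epithelial markers 32.2 to 71.8 and 8.30 to 109 FPKM. The 8 eosinophil markers summed to 0 to 40.0 FPKM over all libraries, with *Epx* at 0 throughout, and the 6 stromal and endothelial markers to 0.123 to 20.5 FPKM. Without the 3 6DKO libraries named above, *Il2ra*, *Cpa3* and *Cd79b* were still called in WT (limma adjusted p = 0.00721, 0.0369 and 0.0474) and *Klrg1* was not (0.110). In that fit the 6DKO log2 change was −1.28 for *Il2ra*, −2.33 for *Epcam* and 2.40 for *Cd68*, and none was called (limma adjusted p = 0.310, 0.342 and 0.252). The part of these cells in the cytokine levels was not tested.

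The cytokine genes were also compared with other genes by their centred values over the 12 libraries. The measure was the root mean square difference of log2(FPKM + 1) after centring each gene, over the 7407 genes that averaged 5 FPKM or more. Nearest to *Csf2* were *Cd200r1* (0.16), *Cd300a* (0.20) and *Ahcyl2* (0.20), against a spread of *Csf2* itself of 0.63 (SD). *Cd200r1*, an inhibitory receptor gene, fell by 1.30 in WT and 1.02 in 6DKO (limma adjusted p = 0.00297 and 0.0168), the 6DKO call being lost without 6DKO IL-33 1, 2 or 3 (0.0722, 0.0639 and 0.0662) or the 3 6DKO libraries with markers of other cells (−1.16, limma adjusted p = 0.268). *Cd300a* was called in neither genotype (limma adjusted p = 0.174 in WT and 0.211 in 6DKO). *Ahcyl2* was called lower in both (0.00137 and 0.00345), with a 6DKO log2 change of −1.26 without those 3 libraries. These genes were picked for their likeness to *Csf2* over the same libraries, so their falls are no separate test. Nearest to *Il5* were *Nedd4* (0.22), *Arhgap4* (0.23) and *Ube3a* (0.24), and nearest to *Areg* were *Dad1* (0.14), *Tln1* (0.15) and *Ptpn18* (0.16). For *Il13* the nearest were *Atpaf1* (0.51), *Tmub1* (0.56) and *Cyb561d2* (0.58), and for *Il4* they were *Slc4a7* (0.56), *Prkaa1* (0.57) and *Ctss* (0.58). No gene came closer than 0.88 to *Il9*, where *Lrrfip2* was first. Among the cytokine genes themselves, *Il5* and *Areg* differed by 0.32, *Il5* and *Csf2* by 0.42 and *Areg* and *Csf2* by 0.42. Every other pair differed by at least 1.26. Values were centred and not scaled, so the spread of each gene enters its distances. That spread (SD) was 1.52 for *Il13*, 1.25 for *Il9*, 1.13 for *Il4*, 0.52 for *Il5* and 0.33 for *Areg*. Small and large distances thus do not show which genes vary together. These distances describe the 12 libraries and carry no test.

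Of the 6 genes 4 lie in a stretch of 647 kb on chromosome 11 of the GRCm38 build (GENCODE vM21). *Il4* (chr11:53602982-53618669, minus strand) and *Il13* (chr11:53631324-53634702, minus strand) are 12.7 kb apart. *Il5* (chr11:53720794-53725106, plus strand) lies 86.1 kb further on, and *Csf2* (chr11:54247271-54249667, minus strand) another 522 kb away. *Areg* is at chr5:91139599-91148432 on the plus strand and *Il9* at chr13:56479277-56482246 on the minus strand. Along the chromosome the adjoining *Il4* and *Il13*, with higher means under IL-33 in both genotypes, are followed by *Il5* and *Csf2*, with lower means in both. Exons of *Il5* share 417 bases with the antisense gene *Gm12214*, and exons of *Csf2* share 96 bases with the antisense gene *Gm12223*. Use of strand in the counting is not given in the sources used here and neither antisense symbol is among the symbols with a value, so reads of the 2 strands cannot be told apart.

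**Figure D3:**
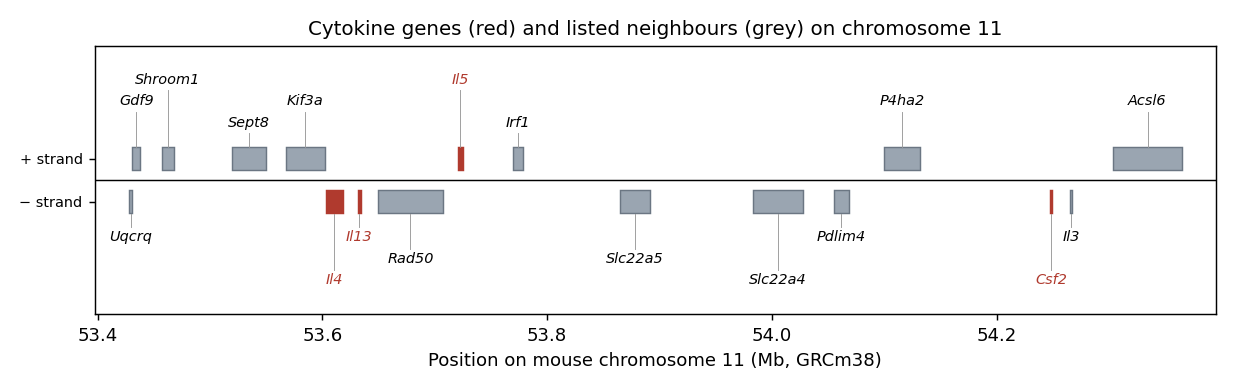
Map of mouse chromosome 11 (horizontal axis, Mb, GRCm38) to scale, with *Il4*, *Il13*, *Il5* and *Csf2* in red and 13 listed neighbours in grey, plus-strand genes above and minus-strand genes below the line. *Il4* and *Il13* lie 12.7 kb apart and *Csf2* lies 522 kb from *Il5*.

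Of 13 listed neighbours in or beside this stretch 11 were tested. In WT 2 rose with IL-33, beside 2.71% of all genes, *Slc22a5*, a carnitine transporter gene, by 2.46 on the log2 scale (limma adjusted p = 0.0208) and *Uqcrq*, a subunit of respiratory complex III, by 0.78 from a mean of 291 to 499 FPKM (limma adjusted p = 0.0235), each in 3 of 3 libraries. *Slc22a5* was listed at 0 in 2 of 3 WT PBS libraries. Its call was lost without WT IL-33 1 (limma adjusted p = 0.0904) or 2 (0.105). That of *Uqcrq* was lost without WT PBS 2 (limma adjusted p = 0.0539), WT PBS 3 (0.0571), WT IL-33 1 (0.106) or WT IL-33 3 (0.108). Neither was called without the 3 6DKO libraries with markers of other cells (limma adjusted p = 0.0685 and 0.0535). In 6DKO 0 neighbours were called by limma, beside 2.9% of all genes. The neighbours' median log2 change was −0.34 in WT and 0 in 6DKO. *Il3*, a hematopoietic growth factor gene next to *Csf2* that was picked out after its values were seen, stood at 6.30 to 104 FPKM under PBS and 0 to 8.08 FPKM under IL-33 and was called in neither genotype.

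Promoters are shown for 5 cytokine genes whose means moved in the same direction in both genotypes, and *Il9*, listed at 0 in 9 of 12 libraries, is left out. They are the 250 bases before each transcript start in RefSeq (GRCm38.p6), read 5′ to 3′ on the strand of the gene, and all 6 genes had an entry. Capitals mark matches on either strand to GATA motifs (AGATAA or AGATAG or TGATAA or TGATAG), the AP-1 motif TGANTCA, the CRE TGACGTCA, the NFAT core GGAAA and the TATA box TATAAA. These occur in 26.5%, 6.75%, 1.55%, 55.6% and 12.4% of 32851 promoters of this length. The first 3 are of the genes with lower means under IL-33, *Csf2* (chr11:54249900-54250149, minus strand), *Il5* (chr11:53720544-53720793, plus strand) and *Areg* (chr5:91139349-91139598, plus strand).
Csf2: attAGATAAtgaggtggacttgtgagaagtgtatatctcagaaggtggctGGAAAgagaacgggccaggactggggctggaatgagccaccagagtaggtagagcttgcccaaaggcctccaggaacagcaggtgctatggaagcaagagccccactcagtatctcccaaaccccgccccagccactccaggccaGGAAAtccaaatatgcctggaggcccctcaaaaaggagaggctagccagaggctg
Il5: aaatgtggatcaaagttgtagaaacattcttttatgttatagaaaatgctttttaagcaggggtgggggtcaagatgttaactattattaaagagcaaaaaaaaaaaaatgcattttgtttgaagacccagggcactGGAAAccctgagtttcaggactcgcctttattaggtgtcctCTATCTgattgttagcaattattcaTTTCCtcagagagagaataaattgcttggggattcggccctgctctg
Areg: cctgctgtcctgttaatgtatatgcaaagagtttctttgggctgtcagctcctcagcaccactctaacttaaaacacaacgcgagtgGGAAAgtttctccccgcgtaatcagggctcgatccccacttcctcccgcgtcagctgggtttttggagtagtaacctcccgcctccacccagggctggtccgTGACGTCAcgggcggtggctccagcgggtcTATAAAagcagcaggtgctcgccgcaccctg
The *Csf2* window holds 1 GATA match and 2 NFAT matches, and it ends 232 bases upstream of the *Csf2* start in GENCODE, since the RefSeq start lies further out. The *Il5* window holds 1 GATA match, written CTATCT on this strand, 72 bases before the start, and 2 NFAT matches. The *Areg* window holds the CRE 61 bases and the TATA box 31 bases before the start, and 1 NFAT match.

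The other 2 are of *Il13* (chr11:53634703-53634952, minus strand) and *Il4* (chr11:53618666-53618915, minus strand), which had higher means under IL-33, with the same motifs in capitals.
Il13: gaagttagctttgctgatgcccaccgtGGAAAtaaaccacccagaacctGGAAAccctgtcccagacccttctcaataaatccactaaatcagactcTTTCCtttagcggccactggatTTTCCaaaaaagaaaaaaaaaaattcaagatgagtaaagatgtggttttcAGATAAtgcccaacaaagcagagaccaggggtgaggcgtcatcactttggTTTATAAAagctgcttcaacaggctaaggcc
Il4: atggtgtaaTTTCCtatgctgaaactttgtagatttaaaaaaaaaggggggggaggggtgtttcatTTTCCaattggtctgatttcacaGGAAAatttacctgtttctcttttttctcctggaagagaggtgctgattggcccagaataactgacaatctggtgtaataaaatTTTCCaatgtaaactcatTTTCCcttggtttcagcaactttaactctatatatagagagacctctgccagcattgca
The *Il13* window holds 1 GATA match 81 bases before the start, 4 NFAT matches and 2 overlapping TATA matches, TATAAA and its reverse complement TTTATA. The *Il4* window holds 5 NFAT matches and none of the other motifs. The *Il9* window, not printed, holds 1 AP-1 match and 3 NFAT matches. NFAT matches occur in all 6 windows and GATA matches in those of *Csf2*, *Il5* and *Il13*, so neither separates the genes with higher from those with lower means. A match describes these letters only.

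In these cells *Csf2* transcripts fell to less than 0.5 of their PBS level with IL-33 in both genotypes, *Il5* fell in 6DKO by a call that single libraries end, and no cytokine gene was called between the genotypes. The means of *Il13* and *Il4* were higher with IL-33 without passing the test, in libraries where both varied widely under PBS. Spread differed between the treatments, so that the width of the genotype intervals for *Il13* and *Il4* under IL-33 depends on which libraries it is taken from. Transcripts at 3 days do not measure secreted protein, earlier times or ILC2 numbers. The genotype could be checked by *Sema6d* levels only in part, and the markers of other cells in 3 of 6 6DKO libraries limit what those libraries say of ILC2s.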

How the data were processed

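The authors deposited FPKM values for 24346 gene symbols in each library, which are scaled for library size and transcript length. The submitters' processing notes name TopHat2 2.1.1, Bowtie2, Cuffdiff 2.2.1 and the build mm10, and the study's methods name other versions of some of these tools. The labels describe SMART-Seq HT cDNA with a Nextera library kit, the methods a TruSeq stranded kit. Groups and replicate numbers were taken from the labels.

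FPKM values were analysed as log2(FPKM + 1) with limma 3.58.1 (lmFit, contrasts.fit and eBayes with a trend) in R 4.3.3, with the means of 4 groups, 12 libraries and 8 residual degrees of freedom, over 11429 genes above 0 in a library that averaged 0.5 FPKM or more or were on a list. P-values were 2-sided and adjusted by Benjamini-Hochberg over all genes tested, with a threshold of 0.05. Exact permutation tests were added for single genes. Python 3.11.15, numpy 2.4.6, pandas 2.3.3 and matplotlib 3.10.9 were used, with GENCODE vM21 for positions and RefSeq for promoters. The fit, the permutation test and the depth estimate were tested on simulated data. Depth was estimated relative to 1 library only, since FPKM values hold no read totals. No pair of libraries was identical (0 pairs), and the highest correlation was 0.950.

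The genes named are the 6 cytokine genes, list members that passed the threshold or were the most abundant of their list, and the 3 genes nearest each cytokine gene. For *Il9* only the nearest gene is named. Others were picked out after their values were seen. The members and lists were chosen with earlier results of these data known. The alternatives tried were a pseudocount of 0.1, other filters on low values, quantile, median-ratio and TPM scaling, eBayes without a trend, weights for single libraries, a block for replicate number, only the groups compared, and leaving out each library. Other measurements of the study were not used here.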

Additional observations from a re-analysis of the deposited data

Results flagged for a closer look

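In 2 genes on the lists, IL-33 and PBS libraries did not overlap in either genotype, with IL-33 higher in WT and lower in 6DKO. All list genes were searched for such opposite changes, and the share of all genes that show them was not counted. Of all genes, 25% in WT and 22.6% in 6DKO were without overlap in either direction. Whether 2 is more than a background was not tested. *Slc22a5*, a neighbour of *Il5* on chromosome 11, stood at 0, 0 and 0.333 FPKM in WT PBS 1 to 3 and at 5.40, 8.25 and 2.74 FPKM in WT IL-33 1 to 3. In 6DKO it stood at 11.3, 14.3 and 5.07 FPKM under PBS and at 4.68, 3.44 and 4.99 FPKM under IL-33. Of 3617 genes of middle abundance, WT PBS 1 and 2 listed 472 and 536 at 0, against 37 to 44 in WT IL-33 libraries. The 6DKO PBS libraries 1 to 3 listed 641, 208 and 237 of them at 0. The 0 values of *Slc22a5* are therefore read only as listed at 0. The interaction of genotype and treatment for *Slc22a5* was −3.43 on the log2 scale and did not pass over all genes (limma adjusted p = 0.308). Its difference between genotypes under PBS was 3.25 (limma adjusted p = 0.0233, higher in 3 of 3 6DKO libraries). That call was lost without WT IL-33 1 (limma adjusted p = 0.0567), 6DKO IL-33 1 (0.0599) or 6DKO IL-33 2 (0.0559). The difference was 2.97 without the 3 6DKO libraries with markers of other cells. Over all genes, calls between genotypes under PBS numbered 1 to 203 over the alternatives. *Ptprc*, which encodes the sorting marker CD45, stood at 234 to 240 FPKM in WT PBS and 244 to 267 FPKM in WT IL-33, against 269 to 335 FPKM in 6DKO PBS and 257 to 266 FPKM in 6DKO IL-33. Its interaction was −0.27 and did not pass (limma adjusted p = 0.895).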

How the results depend on the processing

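*Csf2* was called lower with IL-33 in WT under all 23 alternatives (log2 change −1.34 to −1.06, limma adjusted p 0.000583 to 0.0324) and in 6DKO under 22 of 23 (−1.30 to −1.12, limma adjusted p 0.000814 to 0.171). The exception was the fit without the 3 6DKO libraries with markers of other cells, chosen after seeing the data. The call of *Il5* in 6DKO held under 7 alternatives and was lost under 16 (−1.36 to −0.94, limma adjusted p 0.0168 to 0.377). Cytokine genes called in WT numbered 1 to 2 on leaving out single libraries. In 6DKO they numbered 1 to 3, 1 with no filter, quantile normalization, TPM scaling, eBayes without the trend, array weights or only the groups compared, and 0 without the 3 libraries. In the genotype comparisons and the interaction 0 cytokine genes were called under every alternative by limma. Over all genes, calls in WT numbered 201 to 690 on leaving out single libraries and 329 without the 3. In 6DKO they numbered 121 to 451, 19 without the 3, 213 with array weights and 207 with only the groups compared. Between genotypes under IL-33 they numbered 0 to 3 on leaving out single libraries, 11 without the 3, 2 with a pseudocount of 0.1, 0 with quantile normalization, 57 with array weights and 11 with only the groups compared. Under PBS they numbered 20 to 203, 2 without the 3, 33 with no filter, 42 with quantile normalization, 1 with array weights and 1 with only the groups compared. With TPM scaling 67.8% of the calls under PBS were higher, against 57.4%. Interaction calls numbered 0 to 24, 12 without the 3, 5 with a pseudocount of 0.1, 7 without the trend and 1 with array weights. Some differences turned in sign, none of them called. For *Csf2* under IL-33 the genotype difference was 0.0432 with quantile normalization, −0.21 to 0.0161 on leaving out single libraries and 0.0188 without the 3. Under PBS it was 0.0319 with quantile normalization, 0.00768 with TPM scaling, −0.19 to 0.0906 on leaving out single libraries and 0.00761 without the 3. For *Areg* under PBS these were 0.0484, 0.0420, −0.14 to 0.18 and 0.18. Leaving out single libraries gave −1.36 to 0.14 for *Il4* and −0.40 to 1.71 for *Il13* under PBS, and −1.97 to 0.15 for the *Il13* interaction. The *Il4* interaction was −0.0588 with array weights, −0.52 to 0.98 on leaving out single libraries and −0.31 without the 3, and that of *Csf2* was 0.0113 with quantile normalization, −0.17 to 0.11 and 0.0112. The causes were not tested. Quantile normalization moved the median log2 change of all genes by −0.143 in WT and −0.107 in 6DKO, and a pseudocount of 0.1 by 0.135 and 0.134. *Il9* under PBS could not be fitted with only the groups compared. Over all genes, same-numbered libraries did not deviate together (18 pairs, r −0.0468 to 0.0447, 0 over 0.1). Whether the numbers pair libraries is not given in the sources used here. These correlations cannot exclude a shared effect that is small or limited to some genes. With the replicate block, 368 genes were called in WT, 222 in 6DKO, 1 between genotypes under IL-33, 15 under PBS and 1 for the interaction.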

Other observations

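Immediate early genes, which respond within minutes to cell stimulation or handling, were picked out after their values were seen. All 10 of *Fos*, *Fosb*, *Jun*, *Egr1*, *Nr4a1*, *Ier2*, *Dusp1*, *Zfp36*, *Atf3* and *Btg2* fell with IL-33 in WT by limma (median log2 change −1.37) and 8 of 10 in 6DKO (median −0.97), beside medians over all genes of 0.16 and 0.14. The share of all genes called lower was 1.61% and 1.11%, but these 10 were chosen by their values, so their counts are no test against that share. *Fos* stood at 1935 to 4169 FPKM in the 6 PBS libraries and 934 to 1287 FPKM in the 6 IL-33 libraries, without overlap. *Atf3* stood at 746 to 1759 and 177 to 432 FPKM, and *Nr4a1* at 1685 to 2437 and 732 to 1085 FPKM, both without overlap. In 6DKO *Dusp1* (log2 change −0.34, limma adjusted p = 0.364) and *Fosb* (−1.11, limma adjusted p = 0.0879) did not pass. Between genotypes under PBS, 1 of 10 was called, beside 0.595% of all genes, *Jun*, lower in 6DKO by 0.94 (limma adjusted p = 0.0369), a call lost without any 1 library but WT PBS 2 or 6DKO PBS 1 (0.0521 to 0.0776). The median interaction was 0.59, and 0 of 10 were called by limma, beside 0.0175% of all genes. *Csf2* fell beside them, and a relation between these genes and the cytokine genes was not tested.

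Leaving out single libraries was added for these genes after seeing the data, and 8 of 10 calls in WT held throughout. *Btg2* was lost there without WT PBS 1 or 2 (limma adjusted p = 0.0655 and 0.0615) or WT IL-33 1, 2 or 3 (0.0837, 0.0621 and 0.122). *Fosb* was lost without WT PBS 1 or 3 (limma adjusted p = 0.0823 and 0.0579) or WT IL-33 1, 2 or 3 (0.121, 0.0642 and 0.0690). In 6DKO the calls of *Egr1*, *Ier2* and *Nr4a1* held throughout. *Atf3* was lost without 6DKO PBS 1 (limma adjusted p = 0.0506) or 6DKO IL-33 1 or 2 (0.0761 and 0.0644), and *Fos* without 6DKO IL-33 1 (0.0514). *Jun* was lost without 6DKO PBS 1 (limma adjusted p = 0.0532) or 6DKO IL-33 2 or 3 (0.0784 and 0.106). *Btg2* was lost without 6DKO PBS 1 (limma adjusted p = 0.0702), WT IL-33 1 (0.0520) or 6DKO IL-33 1, 2 or 3 (0.0998, 0.0958 and 0.128). *Zfp36* was lost without 6DKO PBS 1 or 3 (limma adjusted p = 0.0560 and 0.0537) or 6DKO IL-33 1, 2 or 3 (0.102, 0.115 and 0.0641). Without the 3 6DKO libraries with markers of other cells, 9 of 10 were called in WT, all but *Btg2* (limma adjusted p = 0.0854), 1 in 6DKO, *Nr4a1* (0.0438), and *Jun* was not called between genotypes under PBS (−0.84, limma adjusted p = 0.160).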
